A study of Homo sapiens with 16 samples.

Results

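The genes described here are 36 genes of glycolysis and of the transcriptional response to low oxygen. They were taken by symbol from a list and matched to Ensembl identifiers in both deposited tables, which hold 60676 gene identifiers, and all 36 were found. After a filter on low counts 21569 genes were tested, among them 35 of the 36; CA9 had too few counts. RNA was sequenced in 16 libraries of the human melanoma cell lines A101D, labelled with the genotype methionine dependence, and MeWo, labelled with methionine independence, meaning that homocysteine can replace methionine for its growth. Each line has replicates 1 to 8, with no treatment, time or culture given for any of them. All cells were grown in a high-glucose medium with 5% dialyzed serum, 4 mM glutamine, 1 mM pyruvate and 150 µM cystine, and the protocol describes a control form with 200 µM methionine and a methionine-free form with 200 µM homocysteine. No label says which library had which form, and none says what sets replicates 1 to 4 apart from replicates 5 to 8. These 2 sets of replicate numbers were adopted as groups with earlier results of the same data known, so that differences between them describe these libraries and are not assigned to a medium. With 1 line of each kind, a difference between the lines cannot be told apart from any other difference between A101D and MeWo.

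Glycolysis turns glucose into pyruvate in the cytosol. Transporters of the SLC2A family bring glucose in, hexokinases trap it as a phosphate ester, phosphofructokinase commits it to breakdown, and the later enzymes split the sugar and harvest ATP and NADH. Lactate dehydrogenase regenerates NAD from pyruvate, and SLC16A transporters carry the lactate out. Many of these genes are known targets of hypoxia-inducible factor (HIF), a heterodimer of an alpha subunit and ARNT. With oxygen present, the EGLN prolyl hydroxylases mark the alpha subunits for VHL-dependent degradation. Without oxygen the dimer binds DNA at a short core motif and also induces genes of vessel growth, mitophagy, collagen modification and histone demethylation. Melanoma cells are known for high glycolysis even in air.

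Total counts ran from 28910881 to 38961862 per library. All 10 melanocytic markers had counts in both lines, with summed levels of 2528 to 3509 CPM (A101D) and 10540 to 11760 CPM (MeWo) (CPM are counts per 1e6 of the library size after TMM scaling). DCT was lower in MeWo than in A101D (means 488 and 524 CPM against 1652 and 1332 CPM in replicates 1 to 4 and 5 to 8). S100B was lower in MeWo too (129 and 135 CPM against 681 and 536 CPM), and the other melanocytic markers were higher there. In A101D the 5 fibroblast markers summed to 924 to 1039 CPM in replicates 1 to 4 and 582.4 to 652 CPM in replicates 5 to 8, and in MeWo to 76.0 to 85.8 CPM, with none of the 5 at 0. Nearly all of the A101D sum was COL1A2 (means 956 and 596 CPM). Most of the MeWo sum was LUM (72.6 and 75.7 CPM). COL1A1, DCN and LUM were higher in MeWo than in A101D, and COL1A2 and PDGFRB lower. The 5 epithelial markers summed to 118 to 123.5 CPM in A101D replicates 1 to 4, 160.3 to 189 CPM in its replicates 5 to 8 and 2.425 to 3.99 CPM in MeWo, with KRT19 at 0 in MeWo replicates 5 to 8. KRT18 made up most of the A101D sum (means 110 and 152 CPM). The 4 endothelial markers summed to 105 to 123 CPM and then 136 to 143 CPM in A101D, and to 3.01 to 3.4 CPM in MeWo, with none at 0 throughout a group. KDR made up most of the A101D sum (means 111 and 123 CPM). Leukocyte markers stayed at 2.75 to 3.84 CPM and erythroid markers at no more than 0.118 CPM, with CD3E at 0 in MeWo replicates 1 to 4 and HBB at 0 in all libraries. A101D replicates 5 to 8 had more genes with a count than replicates 1 to 4 (34020 to 34607 against 31281 to 33107), a larger mitochondrial share of counts (1.93% to 2.33% against 1.71% to 1.92%) and higher TMM factors (1.03 to 1.06 against 0.955 to 0.985). The part of these differences in the gene results was not tested. MeWo replicate 2 stood apart in the number of detected genes, 34471, the other 7 libraries of its line having 30066 to 31433. In bulk samples, fewer cells of one kind and less RNA per cell cannot be told apart.

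In A101D most glycolytic genes were lower in replicates 5 to 8 than in replicates 1 to 4, while both glucose transporters and several hypoxia-response genes were higher. Of the 35 genes tested, 8 were higher and 23 lower at an adjusted p of 0.05 in limma, where 33.1% of all genes tested were higher and 32.4% lower. The split over all genes moved to 37.9% higher and 28.1% lower with upper-quartile factors and to 39.4% and 26.8% with total counts, where the list had 10 higher and 22 lower under each. The median log2 fold change of the 35 genes was -0.43, and that of all genes tested 0.01. The 4 libraries of one group lay wholly above or wholly below those of the other for 30 of the 35 genes, as they did for 59.6% of all genes tested. The enzymes from hexokinase to lactate dehydrogenase, 17 genes in the list, were all lower in replicates 5 to 8, with log2 fold changes from -0.91 to -0.31 and a median of -0.72, and in none of the 17 did the groups overlap. The oxygen sensors and hypoxia-response targets were split, with 5 of 11 tested genes higher, 4 lower and 2 not past the threshold.

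In MeWo most of the same genes did not pass the threshold between the 2 sets of replicate numbers. There 3 of 35 were higher (NDRG1, VEGFA and MXI1) and 5 lower (SLC2A1, HK1, HK2, PFKFB3 and PFKFB4), where 6.16% of all genes tested were higher and 7.45% lower. The groups did not overlap for 7 of the 35, and for 16.6% of all genes tested. The median log2 fold change was -0.02 for the list and 0.00 for all genes tested. Without MeWo replicate 4 the number of lower genes was 8 instead of 5, GPI, PKM and SLC16A1 being added. Without MeWo replicate 5 GPI and PKM were added, and SLC16A1 also passed without A101D replicate 8 or MeWo replicate 6. With total counts in place of TMM factors the number of higher genes was 5 instead of 3, TPI1 and BNIP3 being added. Over all genes the balance in MeWo also depended on the scaling, with 1329 genes higher and 1606 lower under TMM, 1012 and 2001 under median-of-ratios factors, and 2041 and 1037 under total counts. The calls of HK1 and VEGFA were lost without the low-count filter (limma, adjusted p 0.144 and 0.382).

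The difference between the lines in this change was tested directly, as the change in MeWo minus the change in A101D. It was positive for 22 of the 35 genes and negative for 8, where 25.9% of all genes tested were positive and 23.2% negative. Over all genes this balance turned under the other scalings, to 23.6% positive and 25.2% negative with median-of-ratios factors, 22.8% and 26.5% with upper-quartile factors, and 22.5% and 26.6% with total counts, while the list had 22 positive and 10 negative under each of the 3. All 17 enzymes were among the positive ones, with values from 0.24 (PKM) to 0.96 (PFKL). Negative values were found for SLC2A1, SLC2A3, PFKFB3, EGLN1, NDRG1, VEGFA, KDM3A and MXI1. The 5 genes not past the threshold were PDK1, SLC16A1, EGLN3, P4HA2 and ADM. Of these, SLC16A1 and P4HA2 were called negative under all 3 other scalings, at -0.16, -0.18 and -0.18 for SLC16A1 (limma, adjusted p 0.0281, 0.00426 and 0.00361) and at -0.14, -0.16 and -0.16 for P4HA2 (adjusted p 0.0445, 0.00619 and 0.00372), in the order above. SLC16A1 also passed with a filter at 1 CPM (-0.13, limma, adjusted p 0.0379) and without A101D replicate 2 or 8 or MeWo replicate 4 or 6 (-0.18 to -0.15), and P4HA2 without A101D replicate 3 or 8 or MeWo replicate 4 (-0.15 to -0.14). EGLN3 passed with limma-trend (0.45, adjusted p 0.0498) and without A101D replicate 4 or MeWo replicate 1 or 7 (0.49 to 0.58). Of the 2 within-line changes behind each value, the following paragraphs give the change or the levels in A101D gene by gene. For MeWo they do so for only part of the genes. The MeWo changes of the 17 enzymes ran from -0.20 to 0.14, and those of ANKRD37 and P4HA1 were both 0.04. Both changes are drawn for all 35 genes in the plot of log2 fold changes by gene and line.

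**Figure D1:**
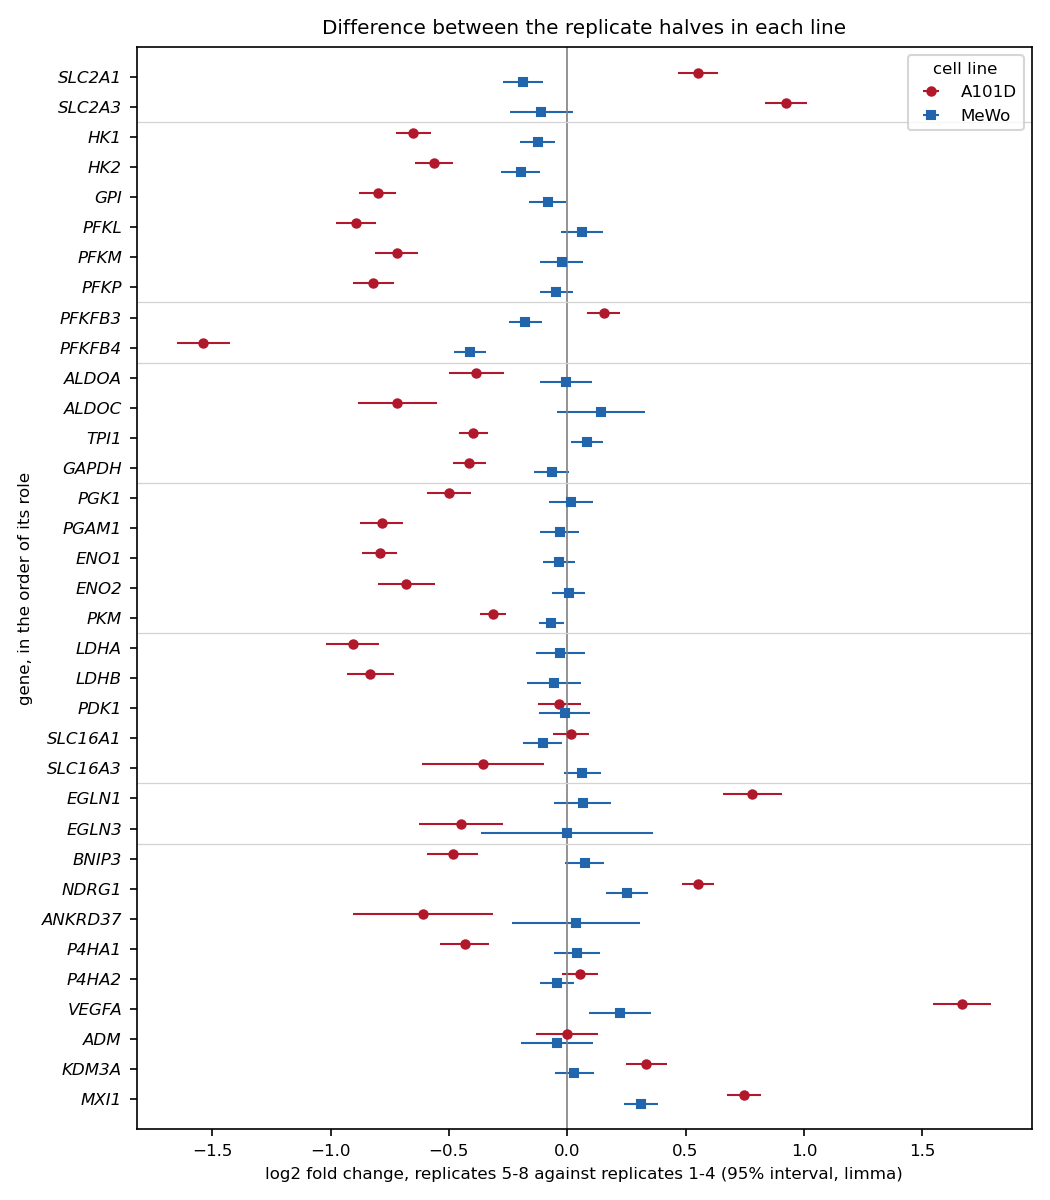
Log2 fold change of the 35 tested genes between replicates 5 to 8 and replicates 1 to 4 (horizontal axis, limma, bars are 95% intervals) in A101D (red circles) and MeWo (blue squares), with genes on the vertical axis in the order of their roles. The A101D points of the 17 enzymes lie between -0.91 and -0.31, while the MeWo points of the same enzymes lie between -0.20 and 0.14; VEGFA in A101D is the rightmost point at 1.67 and PFKFB4 in A101D the leftmost at -1.54.

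HIF binds the core ACGTG or GCGTG, and 2 promoters of genes lower in A101D replicates 5 to 8 and 2 of genes higher there are shown so that this core can be seen. They are those with the largest changes in either direction among the 32 genes with a promoter entry in RefSeq (GRCh38.p14); SLC2A3, SLC16A1, NDRG1 and VEGFA have none in the table used. Each is the 250 bases before the start of the gene in that RefSeq table, 5′ to 3′ on the gene's strand. That start can differ from the end of the GENCODE span given with a gene elsewhere in the text: the windows of PFKFB4 and EGLN1 lie inside that span, and the window of LDHA overlaps its start. Capitals mark every ACGTG or GCGTG on either strand, which read on the printed strand also appear as CACGT and CACGC. In PFKFB4 (chr3:48556804-48557053, minus strand) there was 1 match. In LDHA (chr11:18394313-18394562, plus strand) there were 5 matches, 4 of them in 2 copies of CACGTG, which holds the core on both strands. MXI1 (chr10:110207355-110207604, plus strand) had 0 matches in this window and EGLN1 (chr1:231422288-231422537, minus strand) had 1.
PFKFB4: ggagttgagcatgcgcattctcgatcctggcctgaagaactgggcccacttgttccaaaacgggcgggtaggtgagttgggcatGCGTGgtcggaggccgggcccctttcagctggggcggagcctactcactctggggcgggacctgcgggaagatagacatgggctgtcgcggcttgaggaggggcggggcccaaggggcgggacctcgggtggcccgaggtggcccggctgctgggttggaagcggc
LDHA: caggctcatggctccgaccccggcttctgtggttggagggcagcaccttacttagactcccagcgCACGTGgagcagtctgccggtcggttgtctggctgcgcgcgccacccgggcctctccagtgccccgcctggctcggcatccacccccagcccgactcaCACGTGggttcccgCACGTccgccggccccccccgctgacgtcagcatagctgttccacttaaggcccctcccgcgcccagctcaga
MXI1: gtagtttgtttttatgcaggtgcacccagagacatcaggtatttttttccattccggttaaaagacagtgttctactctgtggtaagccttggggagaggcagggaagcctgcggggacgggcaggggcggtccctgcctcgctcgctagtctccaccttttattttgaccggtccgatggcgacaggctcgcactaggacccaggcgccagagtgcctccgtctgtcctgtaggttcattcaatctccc
EGLN1: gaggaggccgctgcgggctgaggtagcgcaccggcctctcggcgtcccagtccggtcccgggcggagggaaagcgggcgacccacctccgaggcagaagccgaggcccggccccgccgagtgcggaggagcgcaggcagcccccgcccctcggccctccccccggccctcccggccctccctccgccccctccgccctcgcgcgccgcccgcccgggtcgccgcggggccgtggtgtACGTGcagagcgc
Of all 35116 promoters of this length 15172 (43.2%) held the core, against 19 of the 32 genes (59.4%). The share was 14 of 23 (60.9%) among the genes lower in A101D replicates 5 to 8 and 3 of 5 (60.0%) among those higher there. With only 5 promoters of higher genes, and SLC2A3, NDRG1 and VEGFA without an entry, these 2 shares cannot be compared. Apart from LDHA, BNIP3 with 6 matches and ALDOC with 5 had the most. A match is a string of letters and no evidence of binding.

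Both glucose transporters were higher in A101D replicates 5 to 8. SLC2A3, the high-affinity transporter GLUT3 (chr12:7919230-7936275, GRCh38), had 90.1, 96.0, 81.9 and 86.3 CPM in A101D replicates 1 to 4 and 175, 174, 174 and 151 CPM in replicates 5 to 8. Every one of the later-numbered libraries lay above every one of the others, by 1.90-fold on average (log2 fold change 0.93 ± 0.04 SE, adjusted p 1.3e-20, limma). MeWo held far less, with 22.7, 23.8, 22.4 and 21.7 CPM in replicates 1 to 4 and 20.1, 21.5, 21.6 and 20.7 CPM in replicates 5 to 8, and its sets did not pass the threshold (limma, adjusted p 0.309). SLC2A3 was thus 3.91-fold lower in MeWo in replicates 1 to 4 and 8.01-fold lower in replicates 5 to 8 (limma, adjusted p 6.36e-28 and 1.76e-34). SLC2A14, a near-identical copy of SLC2A3, was counted at 1.17 and 2.16 CPM in A101D, and reads of the pair may have been exchanged.

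SLC2A1, the widely expressed transporter GLUT1 (chr1:42925375-42959176), moved in opposite directions in the 2 lines. In A101D it was 96.1, 102, 107 and 97.1 CPM in replicates 1 to 4 and 157, 148, 145 and 140.2 CPM in replicates 5 to 8 (log2 fold change 0.55 ± 0.04 SE, adjusted p 1.11e-14, limma). In MeWo it was 142, 140.1, 134 and 138 CPM and then 129, 110.4, 122 and 127 CPM (log2 fold change -0.19 ± 0.04 SE, adjusted p 0.00176, limma). The groups did not overlap in either line, and the difference of the changes was -0.74 (limma, adjusted p 1.44e-13). As a result MeWo lay above A101D in replicates 1 to 4 (1.38-fold) and below it in replicates 5 to 8 (1.21-fold lower).

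The 6 enzymes of the hexose phosphate steps were lower in A101D replicates 5 to 8, with a median log2 fold change of -0.76. The hexokinases HK1 and HK2, which phosphorylate glucose, fell from 349 ± 9.01 to 223 ± 8.08 CPM and from 178 ± 5.08 to 121 ± 4.27 CPM (SD, n = 4 per group; log2 fold changes -0.65 and -0.56). They were also the only 2 of the 17 enzymes lower in MeWo replicates 5 to 8 under TMM scaling, by 0.13 and 0.20 on the log2 scale (limma, adjusted p 0.0158 and 0.000729), with overlapping libraries. The HK1 call in MeWo was lost when MeWo replicate 1, 2, 6 or 8 was left out (limma, adjusted p 0.0707, 0.101, 0.0655 and 0.0702). GPI, which isomerises the hexose phosphate, fell in A101D from 824 to 901 CPM to 461 to 526 CPM (log2 fold change -0.80 ± 0.04 SE, adjusted p 2.31e-17, limma). In MeWo its libraries of both sets together ran from 714 to 832 CPM, with no gap between the sets.

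Phosphofructokinase, the committing step, is encoded by PFKL, PFKM and PFKP, and all 3 were lower in A101D replicates 5 to 8. PFKL (chr21:44300051-44327376), known as the liver form, went from 267, 255, 246 and 262 CPM to 129, 139, 140.2 and 146 CPM (log2 fold change -0.89 ± 0.04 SE, adjusted p 5.4e-20, limma). PFKM, the muscle form, went from 272 ± 10.6 to 166 ± 16.02 CPM, with a log2 fold change of -0.72. PFKP (chr10:3066333-3137712), the platelet form, had 139.7, 134, 136 and 139 CPM in replicates 1 to 4 and 70.5, 77.9, 78.6 and 84.7 CPM in replicates 5 to 8 (log2 fold change -0.82 ± 0.04 SE, adjusted p 1.56e-19, limma). In MeWo PFKP was several times higher, at 496, 510.0, 480.4 and 478 CPM and 501, 448, 483 and 472 CPM (3.58-fold and 6.11-fold above A101D; limma, adjusted p 1.66e-33 and 5.24e-38). PFKL was lower in MeWo by 1.06 on the log2 scale in replicates 1 to 4. In replicates 5 to 8 the PFKL difference was -0.10 with overlapping libraries (limma, adjusted p 0.0297), a call that was lost without A101D replicate 8 or without any one of MeWo replicates 1 to 4, 6 and 8 (adjusted p 0.056 to 0.357), without the low-count filter (0.0899) and with a filter at 1 CPM (0.0554).

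The 2 bifunctional enzymes PFKFB3 and PFKFB4 make and remove the sugar bisphosphate that activates phosphofructokinase, and they moved apart in A101D. PFKFB4 (chr3:48517684-48562015) had the largest fall of all 35 genes there, from 56.2, 56.6, 49.5 and 54.3 CPM to 17.8, 18.4, 18.5 and 20.0 CPM (2.90-fold lower; log2 fold change -1.54 ± 0.05 SE, adjusted p 1.96e-25, limma). It was also lower in MeWo replicates 5 to 8, at 321, 289.9, 299 and 306 CPM against 415, 389, 396 and 414 CPM (log2 fold change -0.41 ± 0.03 SE, adjusted p 3.48e-11, limma). The fall was larger in A101D by 1.13 on the log2 scale (limma, adjusted p 3.33e-18). Between the lines PFKFB4 was 7.44-fold higher in MeWo in replicates 1 to 4 and 16.3-fold higher in replicates 5 to 8. Its count is uncertain, because its exons share 289 bases on the same strand with UCN2, the gene of a peptide hormone, and UCN2 showed a like pattern in A101D (29.4 ± 3.11 and 8.79 ± 0.852 CPM) and between the lines (325 ± 5.10 and 309 ± 21.2 CPM in MeWo).

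PFKFB3 changed little but in opposite directions. It was 128, 126, 121 and 122 CPM in A101D replicates 1 to 4 and 141, 139, 139.9 and 134 CPM in replicates 5 to 8 (log2 fold change 0.15 ± 0.03 SE, adjusted p 0.000127, limma). In MeWo it was 134, 131, 129.5 and 129.7 CPM and then 120.3, 111, 119.5 and 113 CPM (log2 fold change -0.18 ± 0.03 SE, adjusted p 0.000335, limma). The groups did not overlap in either line. In replicates 1 to 4 the lines differed by 0.07 on the log2 scale (limma, adjusted p 0.0494), a call that was lost without A101D replicate 4, 5, 6 or 7 (adjusted p 0.0749 to 0.142), without the low-count filter (0.402) and with limma-trend (0.0506).

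The triose steps had smaller falls in A101D, with a median log2 fold change of -0.41 over 4 genes. The aldolases ALDOA and ALDOC, which split the sugar, went from 88.8 ± 6.21 to 68.1 ± 4.51 CPM and from 61.4 ± 5.64 to 37.3 ± 3.62 CPM (log2 fold changes -0.38 and -0.72). TPI1, which interconverts the trioses, had 1059.7, 1100.1, 1072 and 1018 CPM in replicates 1 to 4 and 771, 815, 806 and 832 CPM in replicates 5 to 8 (log2 fold change -0.40 ± 0.03 SE, adjusted p 6.38e-15, limma). GAPDH, which oxidises the triose phosphate and is often used as a reference gene, had 3428, 3584, 3487 and 3379 CPM and then 2418, 2626, 2596 and 2778 CPM (log2 fold change -0.41 ± 0.03 SE, adjusted p 1.71e-11, limma). GAPDH was also 1.81-fold and 1.42-fold lower in MeWo than in A101D in the 2 sets, so its level was steady neither between the lines nor within A101D. TPI1 was lower in MeWo by 1.17 and 0.68 on the log2 scale. In MeWo none of the 4 passed the threshold between the sets under TMM scaling, while TPI1 was called higher with upper-quartile factors (adjusted p 0.0149), with total counts (0.00137) and with a filter at 1 CPM (0.0476).

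The 5 enzymes of lower glycolysis were lower in A101D replicates 5 to 8, with a median of -0.68. ENO1 (chr1:8861000-8879250), the main enolase, had 2561, 2661, 2594 and 2490.3 CPM in A101D replicates 1 to 4 and 1415, 1505, 1458 and 1569 CPM in replicates 5 to 8 (log2 fold change -0.79 ± 0.04 SE, adjusted p 3.47e-16, limma). MeWo held 4542, 4602, 4357 and 4203 CPM and 4609.7, 4075, 4348 and 4259.9 CPM, above every A101D library and overlapping between its own sets. The gap between the lines was therefore 1.72-fold in replicates 1 to 4 and 2.90-fold in replicates 5 to 8. ENO2, the enolase known from neurons, ran from 20.3 to 22.4 CPM in A101D replicates 1 to 4, from 12.8 to 13.7 CPM in its replicates 5 to 8 and from 121 to 132 CPM in the MeWo libraries. It was 6.001-fold and 9.65-fold higher in MeWo (limma, adjusted p 1.51e-36 and 1.9e-38).

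PGAM1, the phosphoglycerate mutase, fell in A101D from 108 ± 5.17 to 62.9 ± 4.41 CPM, and PGK1, the first ATP-forming enzyme of the pathway, from 1011 ± 49.6 to 714 ± 42.8 CPM (log2 fold changes -0.78 and -0.50). PKM, the pyruvate kinase, showed the smallest fall of the 17 enzymes, from 2571, 2645, 2564 and 2508 CPM to 2042, 2106, 2038 and 2097 CPM (log2 fold change -0.31 ± 0.03 SE, adjusted p 2.85e-13, limma). PGK1 lay 1.15-fold below A101D in MeWo replicates 1 to 4 and 1.24-fold above it in replicates 5 to 8. Such a switch from lower to higher in MeWo, past the threshold in both sets, was also found for HK1, HK2, GPI and PFKM under TMM scaling. The opposite switch, also past the threshold in both, was found for SLC2A1 (0.46 and -0.27 on the log2 scale). It was found for PFKFB3 (0.07 and -0.26) and EGLN1 (0.43 and -0.29) too. The GPI call in replicates 1 to 4 (log2 fold change -0.11) was lost without MeWo replicate 1, 3, 4, 6, 7 or 8 (limma, adjusted p 0.0717 to 0.369), and the HK2 call in replicates 5 to 8 (0.12) without A101D replicate 5 or 7 or MeWo replicate 5 (limma, adjusted p 0.0507 to 0.0712). The HK2 call was also lost with upper-quartile factors (0.08, adjusted p 0.0527), with total counts (0.06, adjusted p 0.125) and without the low-count filter (0.12, adjusted p 0.0538). Among the 17 enzymes, 7 were higher and 10 lower in MeWo in replicates 1 to 4 (37.1% and 42.3% over all genes tested). In replicates 5 to 8, 12 were higher and 4 lower (40.3% and 43.9% over all genes tested), with ALDOC not past the threshold there (log2 fold change -0.14, limma, adjusted p 0.124). ALDOC was called lower there without A101D replicate 5 (-0.22, adjusted p 0.0103), with upper-quartile factors (-0.18, adjusted p 0.0333) and with total counts (-0.20, adjusted p 0.0149).

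**Figure D2:**
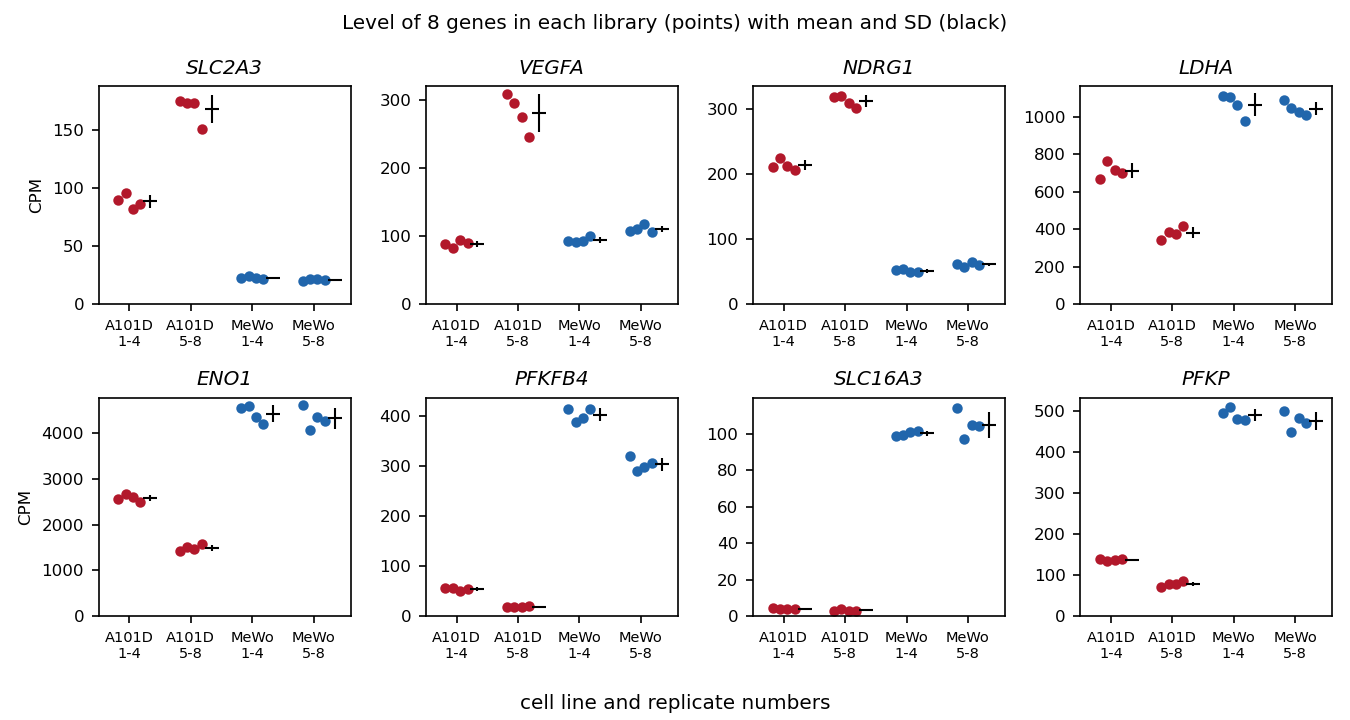
Level of 8 genes in each library (points, CPM on linear vertical axes from 0) for A101D (red) and MeWo (blue), replicates 1 to 4 and 5 to 8 apart, with the mean and SD in black. In A101D, SLC2A3, VEGFA and NDRG1 are higher and LDHA, ENO1, PFKFB4 and PFKP lower in replicates 5 to 8, while MeWo shows a clear step in PFKFB4, from about 403 to 304 CPM, and much higher PFKFB4, SLC16A3 and PFKP than A101D.

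At the end of the pathway the lactate dehydrogenase genes followed the other enzymes. LDHA (chr11:18394388-18408425), the form that favours lactate formation, had 669, 763, 718 and 702 CPM in A101D replicates 1 to 4 and 344, 385, 375 and 416 CPM in replicates 5 to 8 (1.88-fold lower; log2 fold change -0.91 ± 0.05 SE, adjusted p 1.69e-11, limma). MeWo held 1111, 1107, 1066 and 979 CPM and 1093, 1047, 1027 and 1011 CPM, with overlapping sets (log2 fold change -0.03, 95% interval -0.13 to 0.07). LDHB, the form found in oxidative tissue, was 74.9, 89.6, 85.2 and 84.1 CPM and then 42.4, 48.6, 48.2 and 47.6 CPM in A101D (log2 fold change -0.83 ± 0.05 SE, adjusted p 7.03e-18, limma). It was 34.6 ± 1.59 and 33.3 ± 1.68 CPM in MeWo, lower than in A101D in both sets. LDHA was higher in MeWo, by 1.496-fold in replicates 1 to 4 and 2.75-fold in replicates 5 to 8.

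SLC16A3, the lactate exporter MCT4 (chr17:82228397-82261129), showed the largest difference between the lines of the 35 genes. A101D held 4.28, 3.67, 3.84 and 4.09 CPM in replicates 1 to 4 and 2.81, 3.82, 2.95 and 2.91 CPM in replicates 5 to 8, and MeWo 98.7, 99.3, 100.98 and 101.4 CPM and 114, 96.8, 105 and 104 CPM. It was 25.0-fold and 33.5-fold higher in MeWo (log2 fold change 4.65 ± 0.09 SE, adjusted p 5.63e-35, limma; 5.07 ± 0.10 in replicates 5 to 8). Within A101D its groups overlapped, and the lower level in replicates 5 to 8 (log2 fold change -0.36, limma, adjusted p 0.0136) did not pass with upper-quartile factors (adjusted p 0.0598), with total counts (0.0865), without A101D replicate 5 (0.0522) or without A101D replicate 8 (0.0552). SLC16A1, the transporter MCT1, was 1.603-fold and 1.74-fold lower in MeWo, at 92.2 to 104 and 89.1 to 96.6 CPM against 151 to 169.5 and 152 to 167 CPM. It did not pass between the sets of A101D (log2 fold change 0.02, 95% interval -0.06 to 0.09), but was called higher there with upper-quartile factors (0.09, adjusted p 0.0201) and total counts (0.12, adjusted p 0.00372). PDK1, a kinase that keeps pyruvate out of the mitochondrial dehydrogenase, was 41.8 ± 2.66 and 40.8 ± 0.786 CPM in A101D and 25.6 ± 0.717 and 25.4 ± 1.58 CPM in MeWo. The lines differed in PDK1 by -0.70 and -0.68 on the log2 scale, while the change between the sets was within -0.13 to 0.06 (95% interval) in A101D.

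**Figure D3:**
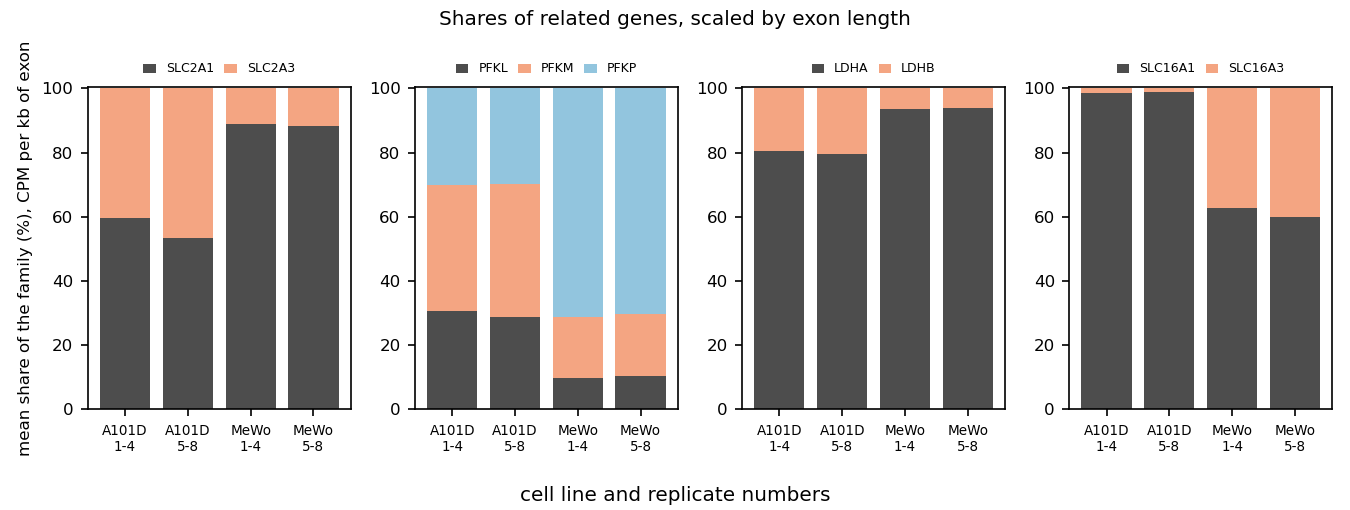
Mean share (percent, vertical axis) of each gene in 4 families, from CPM per kb of exon, for the 4 groups of 4 libraries. PFKP makes up 71.2% and 70.4% of the phosphofructokinase genes in MeWo against 30.1% and 29.7% in A101D, and the shares within a line move far less between the sets than they differ between the lines.

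Scaled by exon length, the lines differed in the shares of some genes within a family. Of the families given here, only phosphofructokinase had a different leading gene in the 2 lines. PFKP made up 71.2 ± 0.645% and 70.4 ± 0.304% of the phosphofructokinase level in the 2 sets of MeWo, against 30.1 ± 0.754% and 29.7 ± 0.0887% in A101D (SD, n = 4 per group). In A101D it was PFKM that had the largest share of that family, 39.4 ± 1.03% and 41.6 ± 0.852%. SLC2A3 was 40.3 ± 2.25% and 46.7 ± 1.24% of the pair of glucose transporters in A101D and 11.2 ± 0.366% and 11.7 ± 1.01% in MeWo. SLC16A3 was 1.46 ± 0.147% and 1.13 ± 0.168% of the pair of lactate transporters in A101D and 37.4 ± 1.47% and 40.1 ± 2.12% in MeWo. LDHA made up 80.4 ± 0.466% and 79.6 ± 0.812% of the lactate dehydrogenase pair in A101D and 93.7 ± 0.171% and 93.8 ± 0.222% in MeWo. The hexokinases were alike, with HK2 at 34.7% to 36.7% of the pair in the 4 groups. No library of one line overlapped the other line in the PFKP, SLC2A3, SLC16A3 or LDHA share, and these shares were described without a test. The size of a share depends on the gene models, because the length counts all annotated exons of a gene. It was 8995 bases for SLC16A3 and 5312 for SLC16A1. Unscaled, the 2 genes had 100 and 99.3 CPM in MeWo replicates 1 to 4, and 105 and 92.3 CPM in replicates 5 to 8. LDHB shares 997 of its 2983 exon bases with another gene, which may lower its count.

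Among the oxygen sensors, EGLN1 and EGLN3 moved apart in A101D. EGLN1 (chr1:231363751-231425044), the main HIF prolyl hydroxylase, had 25.0, 21.2, 18.9 and 19.8 CPM in replicates 1 to 4 and 35.6, 38.3, 38.4 and 33.98 CPM in replicates 5 to 8 (log2 fold change 0.78 ± 0.06 SE, adjusted p 4.53e-14, limma). MeWo held 27.6 to 29.4 and 27.4 to 31.2 CPM, between the 2 sets of A101D. EGLN3, a further member of the family, was 8.65, 9.31, 9.75 and 8.13 CPM and then 6.16, 6.21, 6.56 and 7.12 CPM in A101D (log2 fold change -0.45 ± 0.09 SE, adjusted p 2.09e-05, limma). In MeWo it was 1.30 to 2.01 and 1.15 to 1.79 CPM, 5.82-fold and 4.26-fold lower than in A101D.

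VEGFA (chr6:43770184-43786487), the growth factor of blood vessels, showed the largest rise of the 35 genes. It had 87.6, 81.8, 93.5 and 89.9 CPM in A101D replicates 1 to 4 and 309.5, 295, 275 and 246 CPM in replicates 5 to 8, 3.18-fold higher (log2 fold change 1.67 ± 0.06 SE, adjusted p 2.06e-16, limma). In MeWo it had 92.5, 91.996, 93.2 and 100.7 CPM and 107, 110.3, 117 and 107 CPM (log2 fold change 0.22 ± 0.06 SE, adjusted p 0.0198, limma). The groups did not overlap in either line, and the rise was larger in A101D by 1.45 on the log2 scale (limma, adjusted p 5.28e-12). The MeWo call was lost when MeWo replicate 1, 2, 3, 6 or 7 was left out (limma, adjusted p 0.0514 to 0.0642). In replicates 1 to 4 the 2 lines did not pass the threshold (log2 fold change 0.10, limma, adjusted p 0.146), although they did without A101D replicate 3 or 8 or MeWo replicate 7 or 8 (adjusted p 0.00993 to 0.0437). In replicates 5 to 8 MeWo was 2.54-fold lower (limma, adjusted p 2.27e-15).

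NDRG1, a stress-response gene linked to differentiation, was high in A101D and rose further, from 211, 223, 211 and 205 CPM to 318, 319.9, 309 and 301 CPM (log2 fold change 0.55 ± 0.03 SE, adjusted p 1.04e-17, limma). MeWo held 53.0, 53.9, 48.5 and 48.6 CPM and 61.8, 57.5, 63.9 and 60.1 CPM, a smaller rise (log2 fold change 0.25 ± 0.04 SE, adjusted p 7.95e-05, limma). It was 4.17-fold and 5.13-fold lower in MeWo. MXI1 (chr10:110207605-110287365), which pairs with MAX and opposes MYC, was 76.0, 74.8, 75.2 and 73.8 CPM and then 127, 126, 125 and 125 CPM in A101D (log2 fold change 0.75 ± 0.04 SE, adjusted p 3.47e-21, limma). In MeWo it was 102, 98.7, 96.4 and 92.02 CPM and then 119.6, 127, 119 and 117 CPM (log2 fold change 0.31 ± 0.03 SE, adjusted p 3.82e-08, limma). MXI1 was 1.30-fold higher in MeWo in replicates 1 to 4 and did not pass in replicates 5 to 8 (-0.06, limma, adjusted p 0.086) under TMM scaling. It was called lower there with median-of-ratios factors (-0.09, adjusted p 0.0341), upper-quartile factors (-0.10, adjusted p 0.00395) and total counts (-0.12, adjusted p 0.000753), and without A101D replicate 7 (-0.08, adjusted p 0.0466). These 2 genes and VEGFA were the ones higher in replicates 5 to 8 of both lines, each with the larger rise in A101D (difference of changes -0.30 for NDRG1 and -0.44 for MXI1; limma, adjusted p 1.74e-05 and 1.14e-09).

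KDM3A, a histone demethylase, rose in A101D from 52.3 ± 2.33 to 66.0 ± 3.74 CPM (log2 fold change 0.33 ± 0.04 SE, adjusted p 1.04e-08, limma) and was 76.8 ± 3.05 and 78.4 ± 2.80 CPM in MeWo. Other targets were lower in A101D replicates 5 to 8. BNIP3, a receptor for mitophagy, had 38.1, 39.7, 41.3 and 38.4 CPM and then 28.6, 28.4, 27.5 and 27.9 CPM (log2 fold change -0.48 ± 0.05 SE, adjusted p 1.79e-10, limma). MeWo held 94.5 to 110.3 and 105 to 117 CPM, 2.63-fold and 3.87-fold more than A101D. P4HA1, a catalytic subunit of collagen prolyl hydroxylase, fell in A101D from 90.2 ± 5.11 to 66.7 ± 3.42 CPM (log2 fold change -0.43). P4HA2, its counterpart, was 86.8 ± 3.68 and 90.0 ± 2.41 CPM and did not pass (0.05, 95% interval -0.02 to 0.13), though it was called higher with upper-quartile factors (0.13, adjusted p 0.00128) and total counts (0.16, adjusted p 0.000137). ANKRD37, a small ankyrin-repeat protein, was 2.63 ± 0.213 and 1.73 ± 0.271 CPM in A101D (log2 fold change -0.61 ± 0.15 SE). ADM, the vasodilator adrenomedullin, was 13.6 ± 1.06 and 13.5 ± 0.554 CPM in A101D (95% interval of the log2 fold change -0.13 to 0.13) and 1.39-fold and 1.43-fold lower in MeWo.

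CA9, a carbonic anhydrase of the cell surface that is widely used as a mark of hypoxia, was nearly without counts. It had 15 counts in A101D replicates 1 to 4, 6 in replicates 5 to 8, and 13 and 19 in the 2 sets of MeWo, over 133960558 to 138855729 counts per group of 4 libraries. No difference was detectable at this depth.

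Between the lines the list was mixed. In replicates 1 to 4, 17 of the 35 genes were higher and 16 lower in MeWo, where 37.1% of all genes tested were higher and 42.3% lower. In replicates 5 to 8, 19 were higher and 14 lower, where 40.3% and 43.9% of all genes tested were. The median log2 fold changes were 0.07 and 0.15 for the list and -0.05 and -0.04 for all genes tested. These 2 comparisons and those within the lines use the same libraries, so their calls are not independent.

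**Figure D4:**
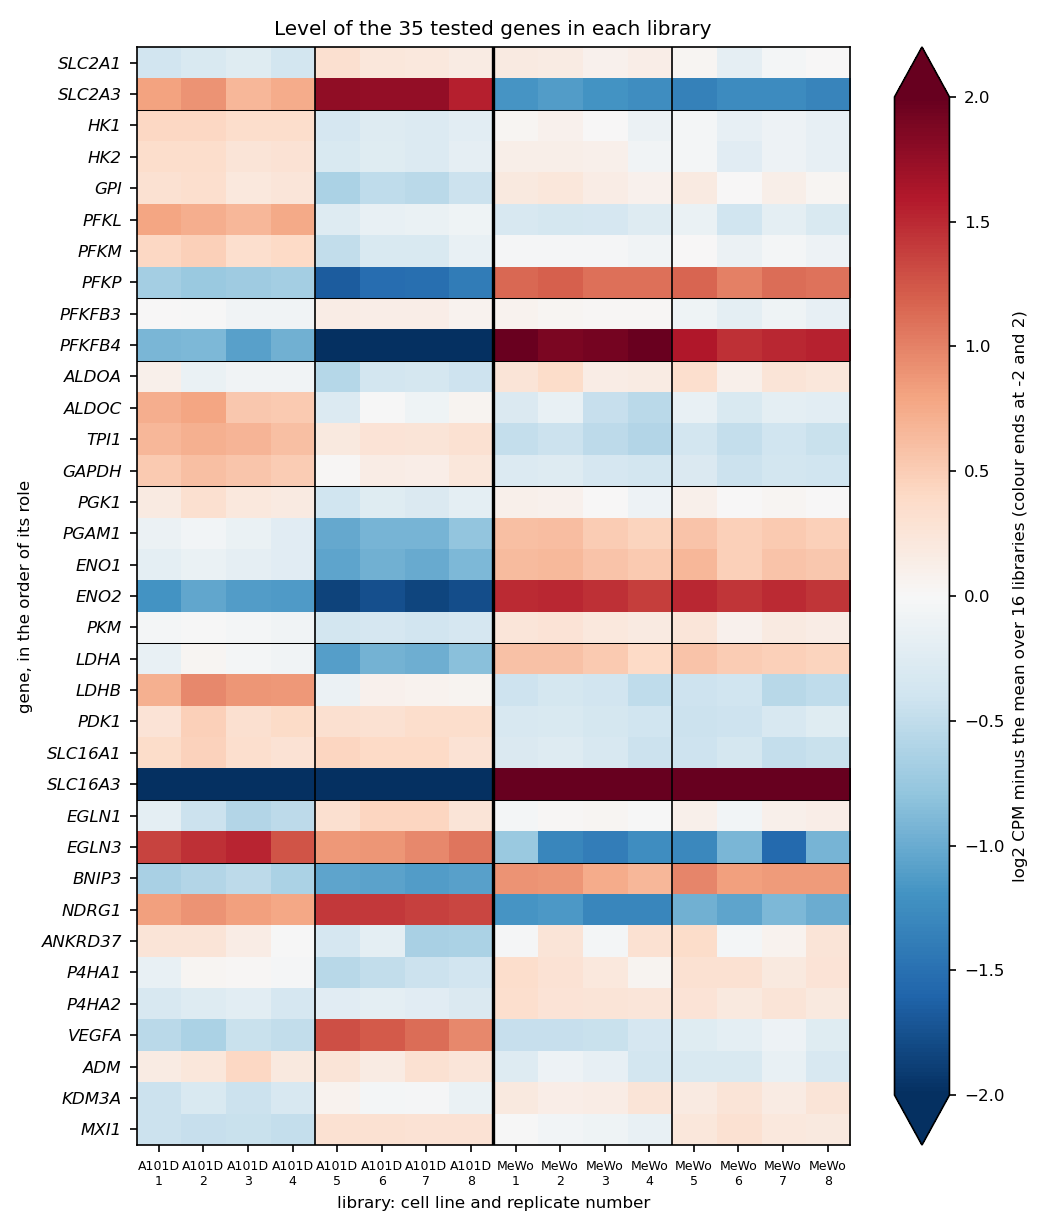
Level of the 35 tested genes (rows, by role) in each of the 16 libraries (columns), as log2 CPM minus the gene's mean over all libraries, with colours ending at -2 and 2. Red is above and blue below the mean. The 17 enzymes from hexokinase to lactate dehydrogenase lie further toward blue in A101D replicates 5 to 8 than in replicates 1 to 4. VEGFA, SLC2A3 and NDRG1 lie further toward red there, and SLC16A3, PFKFB4, ENO2 and PFKP separate the lines.

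The genes around the pathway were read from 6 further lists, whose counts stand against 33.1% higher and 32.4% lower over all genes between the sets of A101D and 6.16% and 7.45% between those of MeWo. Among other enzymes of glycolysis and gluconeogenesis, 4 were higher and 9 lower of 19 tested in A101D replicates 5 to 8 (median -0.18), and 1 was higher and 1 lower in MeWo. TIGAR, a phosphatase that opposes PFKFB enzymes, rose in A101D from 20.5 ± 0.412 to 62.9 ± 2.69 CPM (log2 fold change 1.62 ± 0.04 SE, adjusted p 4.18e-29, limma). In replicates 5 to 8 of both lines PCK2, which makes phosphoenolpyruvate in mitochondria, was higher (0.40 in MeWo and 0.79 in A101D) and PGAM5, a mitochondrial phosphatase, lower (-0.15 and -0.18). Between the lines HKDC1, a hexokinase relative, was 43.8-fold lower in MeWo in replicates 1 to 4, and FBP2, a gluconeogenic bisphosphatase, had 0.382 CPM in A101D and 0.0154 CPM in MeWo. Of the pentose phosphate genes 1 was higher and 6 lower of 8 in A101D (median -0.53), and 1 higher and 4 lower in MeWo. PGLS, the lactonase, fell from 46.6 ± 1.86 to 20.0 ± 1.66 CPM and TKT, the transketolase, from 519.7 ± 11.1 to 285 ± 12.2 CPM in A101D (log2 fold changes -1.22 and -0.87). TKT was also lower in MeWo (-0.22). H6PD, the dehydrogenase of the endoplasmic reticulum, was higher in replicates 5 to 8 of MeWo (31.0 ± 0.687 and 38.6 ± 1.51 CPM, log2 fold change 0.31) and lower in those of A101D (74.0 ± 0.903 and 43.1 ± 2.45 CPM, -0.78). PGD was higher (1.26) and H6PD lower (-1.25) in MeWo than in A101D in replicates 1 to 4.

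Of 13 genes of mitochondrial pyruvate oxidation, 4 were higher and 8 lower in A101D (median -0.27), and 1 higher and 2 lower in MeWo. PDP1, the phosphatase that activates pyruvate dehydrogenase, rose in A101D from 275 ± 8.31 to 549 ± 18.8 CPM (log2 fold change 1.00 ± 0.03 SE, adjusted p 1.32e-26, limma) and, less, in MeWo (0.16), while MPC2, a subunit of the mitochondrial pyruvate carrier, fell in A101D (-0.80). PDP2, a further such phosphatase, was lower in MeWo replicates 5 to 8 (-0.23) and higher in those of A101D (0.28). The kinases PDK4 and PDK2, which inhibit the same complex, were 4.05-fold and 2.696-fold higher in MeWo in replicates 1 to 4. Of 15 other transport genes tested, 8 were higher and 7 lower in A101D (median 0.22), and 1 higher and 2 lower in MeWo. TXNIP, which restrains glucose uptake, rose in A101D from 67.7 ± 2.45 to 153 ± 8.64 CPM (log2 fold change 1.17 ± 0.04 SE, adjusted p 8e-25, limma) and in MeWo by 0.21. SLC2A2, the glucose transporter of liver, went from 0.0976 to 0.805 CPM in A101D, and SLC2A6 was lower in replicates 5 to 8 of MeWo (-0.22) and of A101D (-0.72). SLC2A10 was 25.8-fold lower in MeWo in replicates 1 to 4, and SLC2A14 was lower there too.

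Among HIF subunits and regulators, 8 were higher and 2 lower of 12 tested in A101D (median 0.24; 33.1% and 32.4% over all genes), and 1 higher and 1 lower in MeWo (6.16% and 7.45% over all genes). HIF1A, the best-known alpha subunit, did not pass in A101D, at 569.8, 647, 594 and 580.0 CPM against 582.4, 589.6, 583 and 580.3 CPM (log2 fold change -0.03, 95% interval -0.10 to 0.03), and was lower in MeWo replicates 5 to 8 (-0.18, limma, adjusted p 5.03e-05). EPAS1, the other main alpha subunit, rose in A101D from 76.2 ± 5.03 to 108 ± 3.36 CPM (log2 fold change 0.50), and the partner ARNT fell from 50.2 ± 2.22 to 36.8 ± 1.88 CPM (-0.45). In MeWo neither passed, with EPAS1 at 60.5 and 60.8 CPM and ARNT at 69.0 and 69.2 CPM. VHL did not pass between the sets of either line (-0.06 and 0.03) and was higher in MeWo in replicates 1 to 4 (log2 difference 0.68). CITED2, which competes with HIF for a coactivator, rose in A101D from 14.5 ± 1.06 to 83.8 ± 11.49 CPM (log2 fold change 2.52 ± 0.09 SE, adjusted p 2.59e-15, limma), and OS9 rose by 0.51 on the log2 scale. EGLN2 was higher in replicates 5 to 8 of MeWo (0.33) and of A101D (0.44). In replicates 1 to 4 CITED2 was higher (1.34) and ARNT2 lower (-1.25) in MeWo than in A101D.

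Of 27 other HIF-responsive genes tested, 11 were higher and 12 lower in A101D (median 0.02), and 3 higher and 2 lower in MeWo. STC2, a secreted stanniocalcin, rose in A101D from 53.3 ± 7.22 to 235 ± 17.0 CPM (log2 fold change 2.15 ± 0.07 SE, adjusted p 6.95e-17, limma), and CA12, a relative of CA9, from 0.26 to 1.63 CPM. DDIT4, an inhibitor of mTOR signalling, was higher in replicates 5 to 8 of both lines, at 39.1 ± 1.99 and 135 ± 8.62 CPM in A101D (log2 fold change 1.78) and 87.0 ± 3.01 and 115 ± 5.07 CPM in MeWo (0.39). PPFIA4 was higher in those of A101D (0.44) and of MeWo (0.49). Between the lines AK4, a mitochondrial adenylate kinase, was 12.7-fold higher in MeWo in replicates 1 to 4.

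Some counts carry an uncertainty from the annotation, since the strand setting of the counting is not known. Besides PFKFB4, exons are shared on the same strand by ALDOA with AC093512.2 (1657 bases, 1811 counts in all libraries) and LDHB with AC010197.2 (997 bases, 17 counts). ALDOA has 3916 and LDHB 2983 exon bases. How reads in shared exons were counted was not examined. The counts of the other gene therefore put no bound on what ALDOA or LDHB may have lost. On opposite strands SLC16A3 overlaps CSNK1D, ANKRD37 overlaps UFSP2, PFKM overlaps SENP1 and CA9 overlaps ARHGEF39. CSNK1D had 57.5 and 71.8 CPM in A101D and 66.5 and 61.3 CPM in MeWo, unlike SLC16A3. SENP1 was lower in A101D replicates 5 to 8, as PFKM was (log2 fold changes -0.23 and -0.72). ARHGEF39 was lower there too (-1.78), where CA9 could not be tested. UFSP2 was higher there (0.31), while ANKRD37 was lower. The part of these overlaps in the counts was not tested. GAPDH has 62 and BNIP3 39 named pseudogene copies, whose own counts came to 0.523% and 1.24% of those of the gene. The largest such share was that of EGLN3 (2.23%). Reads that match a gene and a copy equally were not examined, so these shares do not bound their effect.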

How the data were processed

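The authors deposited 1 table per line of counts per gene, not normalized. Their cells join Ensembl identifier and count, which were separated before use. Reads were processed with Trimmomatic 0.39-1, STAR 2.7.1a, featureCounts 2.0.0 and GRCh38, per the submitters' processing notes, and counted over exons, per the file headers. The sources used here give no annotation release or strand setting. All 16 columns were matched by line and replicate number. Library sizes were TMM-scaled (trims 30% and 5%). Genes needed 0.298 CPM in 4 libraries and 15 counts in all.

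The 4 groups, line by replicates 1 to 4 or 5 to 8, were fitted together by limma-voom with robust moderation (limma 3.58.1 on R 4.3.3). Benjamini-Hochberg adjustment ran over all 21569 genes tested, and calls were made at 0.05. A quasi-likelihood count test was not run, because the joined cells did not pass as counts in a check of units. The genes, lists and groups were chosen with earlier results of these data known. Nothing in the labels says that libraries are separate cultures, so p-values may measure technical spread only. All 36 genes are named, with, of each further list, the 2 genes with the largest change past the threshold within each line and the 2 with the largest line difference in replicates 1 to 4, and HIF1A, EPAS1, ARNT and VHL. Of the genes this rule names, 2 are not reported here. Library pairs of a group differed beyond sampling noise (chi-square per degree of freedom at least 1.92). Gene coordinates are from GENCODE v29 (GRCh38). The limma step was tested on simulated data in which far fewer genes changed than were called in A101D. That test does not cover a case where so many genes change.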

Additional observations from a re-analysis of the deposited data

Results flagged for a closer look

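In 7 of 140 groups of 4 libraries, 1 library lay far from the other 3 by Dixon's 95% critical value for the gap, about the 7 that chance gives. SLC2A3 was lowest in A101D replicate 8, at 151 CPM. HK2 and PFKM were lowest in MeWo replicate 4, at 137 and 194 CPM, and VEGFA was highest there, at 100.7 CPM. LDHB was lowest in A101D replicate 5, at 42.4 CPM, and SLC16A3 highest in A101D replicate 6, at 3.82 CPM. ADM was highest in MeWo replicate 7, at 10.3 CPM.

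The change between replicates 1 to 4 and 5 to 8 differed between the lines for 30 genes by the test of that difference in limma, given here as the log2 change in MeWo minus that in A101D. Such differences were common, with 25.9% of all genes tested positive and 23.2% negative. Among the transporters it was -0.74 for SLC2A1, -1.03 for SLC2A3 and 0.42 for SLC16A3. In the hexose phosphate steps it was 0.52 for HK1, 0.37 for HK2, 0.72 for GPI, 0.96 for PFKL, 0.70 for PFKM and 0.77 for PFKP. The PFKFB genes had opposite signs, -0.33 for PFKFB3 and 1.13 for PFKFB4. In the triose steps it was 0.38 for ALDOA, 0.86 for ALDOC, 0.48 for TPI1 and 0.35 for GAPDH. In lower glycolysis it was 0.52 for PGK1, 0.75 for PGAM1, 0.76 for ENO1, 0.69 for ENO2 and 0.24 for PKM, and it was 0.88 for LDHA and 0.78 for LDHB. Among oxygen sensing and response genes it was positive for BNIP3 (0.56), ANKRD37 (0.65) and P4HA1 (0.47). It was negative for EGLN1 (-0.72), NDRG1 (-0.30), VEGFA (-1.45), KDM3A (-0.30) and MXI1 (-0.44). What sets the replicate numbers apart is not in the labels, and no cause was tested.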

How the results depend on the processing

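No gene of the list that was called changed its sign under any alternative run, which were 3 other scalings, 2 other filters, a threshold of 0.01, limma-trend, no robust moderation, 1 line alone, a replicate block and leaving out each library. The lower level of all 17 enzymes in A101D replicates 5 to 8 passed under each of these fitted for that comparison; the replicate block could not be fitted within a line, where each number stands in 1 set only. The number of genes lower in MeWo replicates 5 to 8 ran from 4 to 8 when 1 library was left out, against 5, and the number higher there was 5 with total counts, against 3. Over all genes, the numbers higher and lower between the sets of MeWo, 1329 and 1606, became 600 and 1292 without the low-count filter and 699 and 896 at a threshold of 0.01. Total counts moved the median of all genes in A101D by 0.10. Equal replicate numbers showed little common deviation (correlations from -0.05 to 0.15, own number best in 3 of 8). These values were set against no reference, so whether equal numbers pair the libraries stays undecided. With the replicate block VEGFA in replicates 1 to 4 (0.10, adjusted p 0.0411) and ALDOC in replicates 5 to 8 (-0.15, adjusted p 0.00949) passed between the lines, as did the difference of changes of SLC16A1 (-0.12, adjusted p 0.0394), and no call was lost. The cause of these changes was not tested. At these depths CA9 could not be compared, and EGLN3, ANKRD37 and, in A101D, SLC16A3 had few counts and wide intervals.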
